A study of Mus musculus with 4 samples.

Results

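The genes described here build the actin cytoskeleton and anchor it to the cell surface at integrin adhesions. They were chosen by name, with no measured value in the rule, but with earlier results of these data known. The list held 49 genes, each represented by its probe set with the highest mean log2 signal over 4 Affymetrix mouse arrays. Of these 49 genes, 46 were measured, among 12393 genes with a symbol of their own. Myh10, Ptk2 and Rock2 were not analysed here.

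All samples were living cells sorted for GFP from mouse back skin on postnatal day 49, in the resting phase (telogen) of the hair follicles. Every mouse carried K14-GFP-actin, a fusion of GFP with actin whose keratin 14 promoter works in basal keratinocytes. The 2 arrays of the total epidermis group held every cell with GFP. For the bulge basal group, also 2 arrays, the sort kept cells with high surface α6 integrin and high CD34, a gate for the basal layer of the bulge. The total sort still contained bulge cells, so each difference sets bulge basal cells against a mixture that includes them. The labels do not say which actin the fusion carries, how many mice were pooled, or whether the replicates came from separate mice, so p-values reflect the spread among these samples alone, and that spread may be technical. One cell type label names bulge stem cells for all 4 samples, and the groups were therefore read from the titles.

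Actin monomers assemble into filaments that are cross-linked by α-actinin and filamin, stabilised by tropomyosin and pulled on by non-muscle myosin II. Integrins bind the matrix outside the cell, and talin, vinculin, paxillin, zyxin and the complex of integrin-linked kinase, LIMS1 and parvin link them to the filaments inside it. The transcription factor SRF, released from control by G-actin through its MRTF cofactors, drives many genes of this set. In the hair follicle, basal cells sit on a basement membrane through such adhesions and through hemidesmosomes.

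Signals are given as log2 of the deposited intensity, in the order replicate 1 and replicate 2. Differences are bulge minus total, and n is 2 arrays per group throughout. A background level of 7.23 on the log2 scale was taken from receptor genes of the nose and tongue. The number of arrays limits the precision. Array medians ran from 123.6 to 145.01 in signal. The SD of replicate differences was 0.49 for total epidermis and 0.87 for bulge cells over 5780 genes above background on every array. Bulge stem cell markers were higher on both bulge arrays than on both total arrays for 9 of 10, where 18% of all genes were. Cd34 is among the 9, and since the sort itself selected for CD34, its value is no check of the labels. Leukocyte markers summed to signals of 2317 and 3293 in total epidermis, against 741 and 1030.1 in bulge cells. Of these markers 8 of 10 were lower without overlap of the groups, where 20.5% of all genes were lower. Melanocyte and Schwann cell markers were lower without overlap for 6 of 7, although their sum, led by Mitf, was 2893 and 2111 in total epidermis and 7077 and 3328 in bulge cells. Fibroblast markers were higher for 2 of 10 and lower for 5, and 5, among them Pdgfra, Lum and Dcn, lay below background on all 4 arrays. Smooth muscle markers lay below background on all 4 arrays for 6 of 9, Myh11 and Lmod1 among them. Pericyte markers summed to 4171 and 2685 against 8749 and 3608.5, led by Cspg4, which was higher without overlap, with 6 of 8 below background on all 4 arrays and Notch3 lower. Suprabasal keratinocyte markers summed to 42165 and 64798 against 31236 and 70566. Of 8 measured, 2 were higher without overlap, Calml3 (3.23-fold) and Dsc1, and 2 lower, Krt1 (9.94-fold) and Ivl. Dsc1 and Ivl lay below background on all 4 arrays. In sorted bulk samples, fewer cells of a type and less RNA per cell cannot be told apart.

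**Figure D1:**
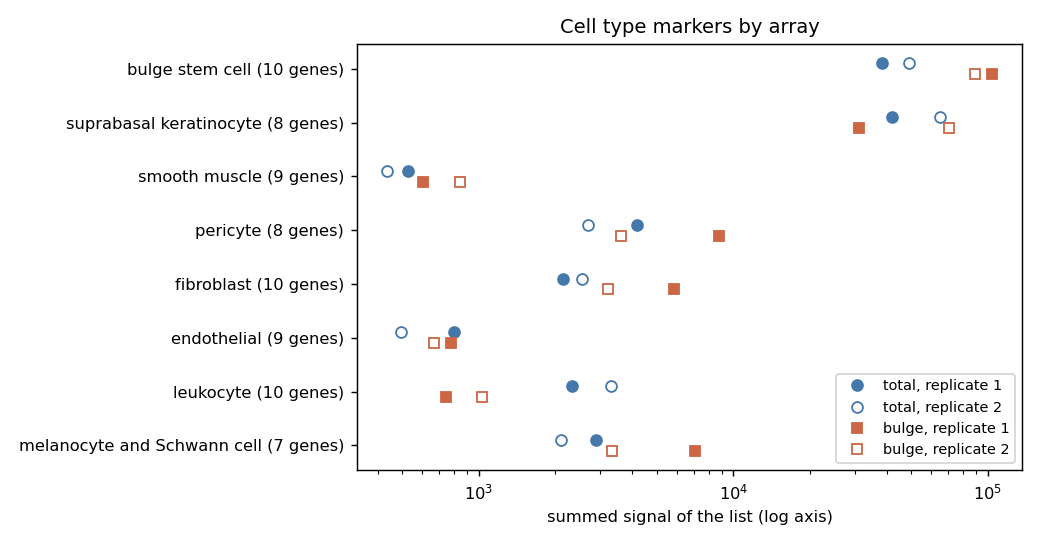
Summed signal of each cell type marker list (horizontal log axis, arbitrary intensity units) on the 4 arrays, with circles for total and squares for bulge samples, filled for replicate 1 and open for replicate 2. Leukocyte marker sums lie at 741 and 1030.1 on the bulge arrays, below 2317 and 3293 on the total arrays.

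Caldesmon and connective tissue growth factor transcripts were higher in the bulge samples, vimentin was lower, and the 2 cytoplasmic actins differed by at most 0.11 on the log2 scale, with intervals about 1 wide to each side. Of the 46 measured genes, 42 were above background on at least 1 array, 35 on all 4 and 4 on none (Actg2, Tagln, Cnn1 and Pfn1), and all 46 enter the counts. By array, 20 were higher on both bulge arrays than on both total arrays and 6 were lower, and in 20 the groups overlapped. The 20 higher genes include Cnn1, although it lay below background on all 4 arrays. Over all genes tested these shares were 18% higher and 20.5% lower, against 43.5% and 13.0% of the 46. Of all genes only 58.5% were above background in at least 1 group mean, so the shares compare sets of unlike brightness. The median difference was 0.36 (quartiles -0.04 and 0.97), against -0.02 over all genes. Since the genes were listed with earlier results of these data known, these contrasts describe the list and are no test of it. The planned limma fit called none of the 46 at an adjusted p of 0.05, as it called 0% of all genes. At an unadjusted p under 0.05 it had 10 higher and 3 lower, where 5.18% and 5.29% of all genes were found. A limma fit with an intensity trend called 1.08% of all genes (0.557% higher, 0.524% lower) and 2 of the 46: Cald1, which rose, and Vim, which fell. With adjustment over the 7249 genes above background in at least 1 group mean, 3.06% were called (1.43% higher, 1.63% lower), Pdlim7 and Ccn2 among them beside Cald1 and Vim. Pdlim7 and Vim entered that fit through 1 group alone, the one where they are high, so the filter was not independent of their difference. With a filter on the mean over all 4 arrays, added after seeing the data, 2.1% of 6755 genes were called, among them Cald1 and Vim but not Ccn2 (adjusted p of 0.0516 in limma), and Pdlim7 was not tested. The trended calls were lost without either total array: the adjusted p of the limma fit was then 0.156 and 0.255 for Cald1 and 0.114 and 0.14 for Vim.

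**Figure D2:**
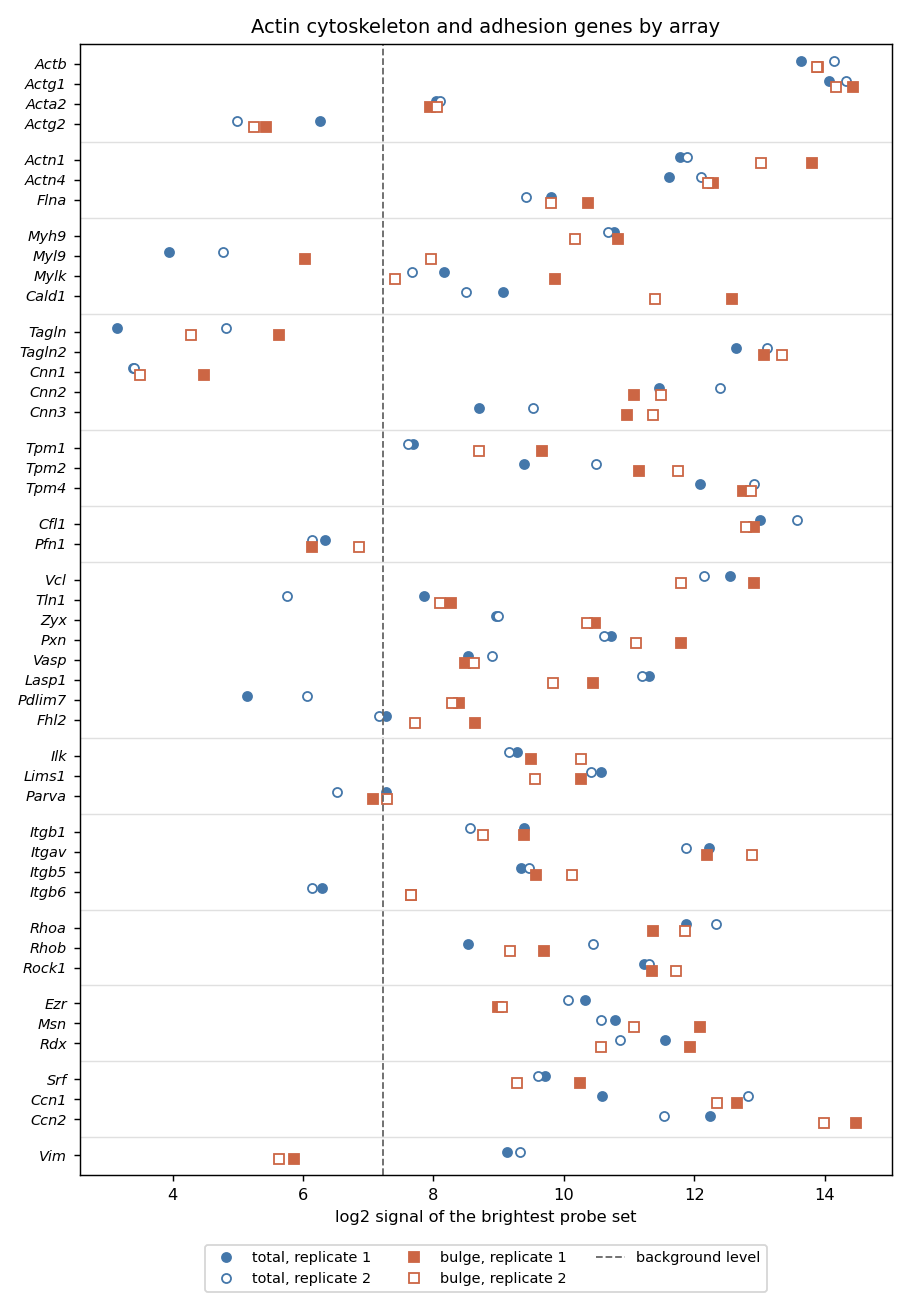
Log2 signal (horizontal axis) of each of the 46 genes on every array, ordered by role, with circles for total and squares for bulge samples, filled for replicate 1 and open for replicate 2, and the background level of 7.23 as a dashed line. Both Cald1 squares lie right of both circles, both Vim squares lie left of background, and Actb and Actg1 symbols fall together.

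Srf encodes the MADS-box factor that binds the CArG box. It had log2 signals of 9.71 and 9.60 in the total sort, against 10.25 and 9.28 in the bulge gate, so the groups overlapped. Its cofactor gene Mrtfa, above background on 1 of 2 total arrays, had 7.45 and 7.07 against 8.57 and 8.33 and was at least 2.17-fold higher in the bulge samples without passing the test. Ccn2, the matricellular protein also called connective tissue growth factor and a target of YAP and TGF-β signalling, had 12.24 and 11.54 among all GFP-positive cells and 14.47 and 13.99 among bulge cells. That is a 5.06-fold difference, with both bulge arrays above both total arrays, and 2.34 ± 0.45 (SE) on the log2 scale. Its adjusted p was 0.141 in the planned limma fit and 0.0818 in the limma fit with the intensity trend. It was 0.0441 in the limma fit on genes above background in a group, but 0.0516 with the filter on the mean over all arrays. Its relative Ccn1 had 10.59 and 12.82 against 12.65 and 12.34. Total replicate 1 stood below the other 3 arrays, and the Ccn1 difference of 0.79 (95% interval -1.20 to 2.78) was within the spread between replicates. The YAP target Amotl2 was 2.05-fold higher without overlap or a call, while Yap1 itself had 13.12 and 13.50 against 13.46 and 12.87. Mrtfa, Amotl2 and Yap1 were picked from the wider list after their values were seen. Of the 11 SRF and YAP genes of that list, 4 were higher without overlap and 2 lower, where 18% and 20.5% of all genes were. The 2 lower were Tead3, at 8.40 and 8.25 against 8.19 and 7.74, and Myocd, below background on all 4 arrays.

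The promoters bear on this class because SRF acts through CArG boxes. RefSeq windows on GRCm38.p6, from 250 bases before to 50 after each start, were found for 39 of the 46 genes, in 47 windows. The CArG box (2 C, 6 A or T, 2 G, a pattern that reads alike on both strands) matched 8 of the 47 windows, 17.0%, in 7 genes, against 1.63% of 32851 windows of all genes. Each stretch shown is 60 bases around the match, 5′ to 3′ on the gene's strand, with the CArG boxes in capitals.
Srf, chr17:46556200-46556259, minus strand: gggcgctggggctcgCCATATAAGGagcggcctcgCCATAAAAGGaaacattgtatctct
Actg1, chr11:120348551-120348610, minus strand: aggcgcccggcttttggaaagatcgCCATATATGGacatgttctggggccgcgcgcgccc
Vcl, chr14:20929148-20929207, plus strand: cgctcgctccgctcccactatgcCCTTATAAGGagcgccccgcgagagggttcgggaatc
Cnn2, chr10:79988519-79988578, plus strand: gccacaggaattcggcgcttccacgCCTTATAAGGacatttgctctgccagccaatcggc
Myl9, chr2:156775278-156775337, plus strand: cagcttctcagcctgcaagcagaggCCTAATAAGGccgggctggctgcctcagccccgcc
Itgb6, chr2:60673709-60673768, minus strand: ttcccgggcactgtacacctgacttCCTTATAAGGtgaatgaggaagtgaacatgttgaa
Fhl2, chr1:43163962-43164021, minus strand: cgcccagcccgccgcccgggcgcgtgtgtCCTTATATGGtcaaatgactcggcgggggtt
Of the 7 genes, Myl9, Itgb6 and Fhl2 were higher in the bulge samples without overlap, and Srf, Actg1, Vcl and Cnn2 had overlapping groups. Of the 46 measured genes 43.5% were higher without overlap, and of all genes 18%. Myl9 and Itgb6 lay below background on both total arrays, and Fhl2 on 1 of them. The other Fhl2 window held a box that starts 96 bases before its start. A match is a run of letters and no measured site.

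The hexamer CATTCC, the core bound by TEAD partners of YAP, was searched on both strands (as GGAATG on the other). It matched 11 of the 47 windows, 23.4%, against 14.7% of all windows, and no match overlapped a CArG box. Higher without overlap were 43.5% of the 46 measured genes and 18% of all genes. Of the 11 genes, 4 (Actn4, Cald1, Flna and Tpm1) were higher in the bulge samples without overlap and 7 had overlapping groups. Cald1 and Tpm1 from the former and Ccn1 from the latter are shown as examples, with the hexamer in capitals.
Cald1, chr6:34598324-34598383, plus strand: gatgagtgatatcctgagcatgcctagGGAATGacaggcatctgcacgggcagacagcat
Tpm1, chr9:67049237-67049296, minus strand: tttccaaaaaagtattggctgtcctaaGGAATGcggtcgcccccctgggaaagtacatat
Ccn1, chr3:145650056-145650115, minus strand: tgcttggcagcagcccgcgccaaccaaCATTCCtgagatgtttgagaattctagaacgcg
Both motifs were searched with earlier results of these data known, and nothing about either factor follows from a match.

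The actins themselves did not separate the groups. Actb, the β-actin gene, had log2 signals of 13.63 and 14.15 in total epidermis and 13.90 and 13.88 in bulge cells. Both bulge values lay between the 2 total values, and the 95% interval of the difference ran from -1.01 to 1.01. Actg1, cytoplasmic γ-actin, had 14.06 and 14.32 against 14.43 and 14.18, with an interval from -0.86 to 1.08. Acta2, the smooth muscle α-actin, had 8.03 and 8.09 against 7.94 and 8.06, and its sign turned with the arrays centred on their medians. Actg2, the smooth muscle γ-actin, lay below background on all 4 arrays. The actins are closely related genes, and whether a probe set reads more than 1 of them or the reporter's actin was not tested. Control probe sets along the β-actin transcript gave a 3′ over 5′ signal ratio of 5.14 and 7.96 in the total sort, against 5.65 and 10.9 in the bulge gate. For Gapdh the ratios were 12.2 and 17.1 against 15.8 and 10.3. Neither ratio separated the groups.

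Of the filament cross-linkers, Actn1 differed most. Actn1, the α-actinin of focal adhesions and stress fibres, had 11.78 and 11.89 among all GFP-positive cells and 13.81 and 13.02 among bulge cells, a 2.99-fold difference of 1.58 ± 0.44 (SE) in log2, at an adjusted p of 0.269 in the planned limma fit. Its next probe set, below background on both total arrays, gave 3.41. Actn4, the other non-muscle α-actinin, had 11.61 and 12.11 against 12.29 and 12.21. Flna, filamin A, had 9.80 and 9.42 against 10.37 and 9.80, so bulge replicate 2 and total replicate 1 were equal to the second decimal. All 3 had bulge above total arrays without overlap, as 43.5% of the 46 genes and 18% of all genes had. None of the 3 passed the test.

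Cald1 encodes caldesmon, which binds actin and tropomyosin and restrains myosin, and it rose in the trended fit. It had log2 signals of 9.06 and 8.50 in total epidermis and 12.57 and 11.39 in bulge cells. The difference was 9.19-fold, 3.20 ± 0.54 (SE) on the log2 scale, with an adjusted p of 0.110 in the planned limma fit and 0.0479 with the trend. Its other 2 probe sets gave 3.62 and 1.67, also without overlap, with both total arrays below background in each. Myl9, a regulatory light chain of smooth muscle and non-muscle myosin, had 3.94 and 4.77 against 6.04 and 7.96 and cleared background on 1 array, bulge replicate 2. Mylk, myosin light chain kinase, had 8.16 and 7.67 against 9.87 and 7.41. Bulge replicate 1 alone was high, and the sign of the Mylk difference turned without it. Myh9, the non-muscle myosin IIA heavy chain, had 10.77 and 10.68 against 10.83 and 10.17, with overlapping groups. Smooth muscle markers summed to signals of 526 and 436 in total epidermis, against 604 and 843 in bulge cells, and 0 of 9 were above background on all 4 arrays. Fibroblast markers summed to 2133 and 2541 against 5828 and 3218. Among them Col1a2, a collagen chain, had 8.42 and 8.16 against 11.91 and 10.59, and Fbln1, fibulin-1, had 7.39 and 7.72 against 10.13 and 9.83. In the other direction Thy1, a surface glycoprotein, had 9.78 and 10.50 against 7.03 and 8.20, and Pdpn, podoplanin, had 8.03 and 7.87 against 7.19 and 7.42, while Pdgfra, Lum and Dcn were below background. The part of these markers in the Cald1 result was not tested.

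Calponins and transgelins, actin-binding proteins with a calponin homology domain, went separate ways. Cnn3, the calponin of many non-muscle cells, had 8.70 and 9.53 in the total sort, against 10.97 and 11.37 in the bulge gate. The difference was 4.15-fold, 2.05 ± 0.46 (SE), with an adjusted p of 0.186 in the planned limma fit and 0.095 with the trend, and all 6 of its probe sets had positive differences. Cnn2 had 11.47 and 12.39 against 11.08 and 11.49, a difference of -0.64 with overlapping groups. Tagln2, the transgelin of non-muscle cells, had 12.65 and 13.11 against 13.06 and 13.35, and the groups overlapped. Tagln and Cnn1, the smooth muscle forms, lay below background on all 4 arrays, and no fold is given for them.

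Of the tropomyosins, which wind along the filament, Tpm1 and Tpm2 were higher in the bulge samples without overlap. Tpm1 had 7.69 and 7.61 among all GFP-positive cells and 9.66 and 8.71 among bulge cells, a 2.89-fold difference. Tpm2 had 9.38 and 10.49 against 11.15 and 11.75, a 2.86-fold difference, and neither passed the planned limma fit (adjusted p of 0.32 and 0.409). Probe sets of Tpm2 disagreed: the others gave 1.08, 1.16 and -0.01. Tpm4 had 12.09 and 12.92 against 12.74 and 12.87 and overlapped. Cfl1, cofilin, which severs filaments, was lower without overlap at 13.00 and 13.58 against 12.92 and 12.79, or -0.44, without a call. Pfn1, profilin, which binds monomers, was below background on all arrays by its only probe set.

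**Figure D3:**
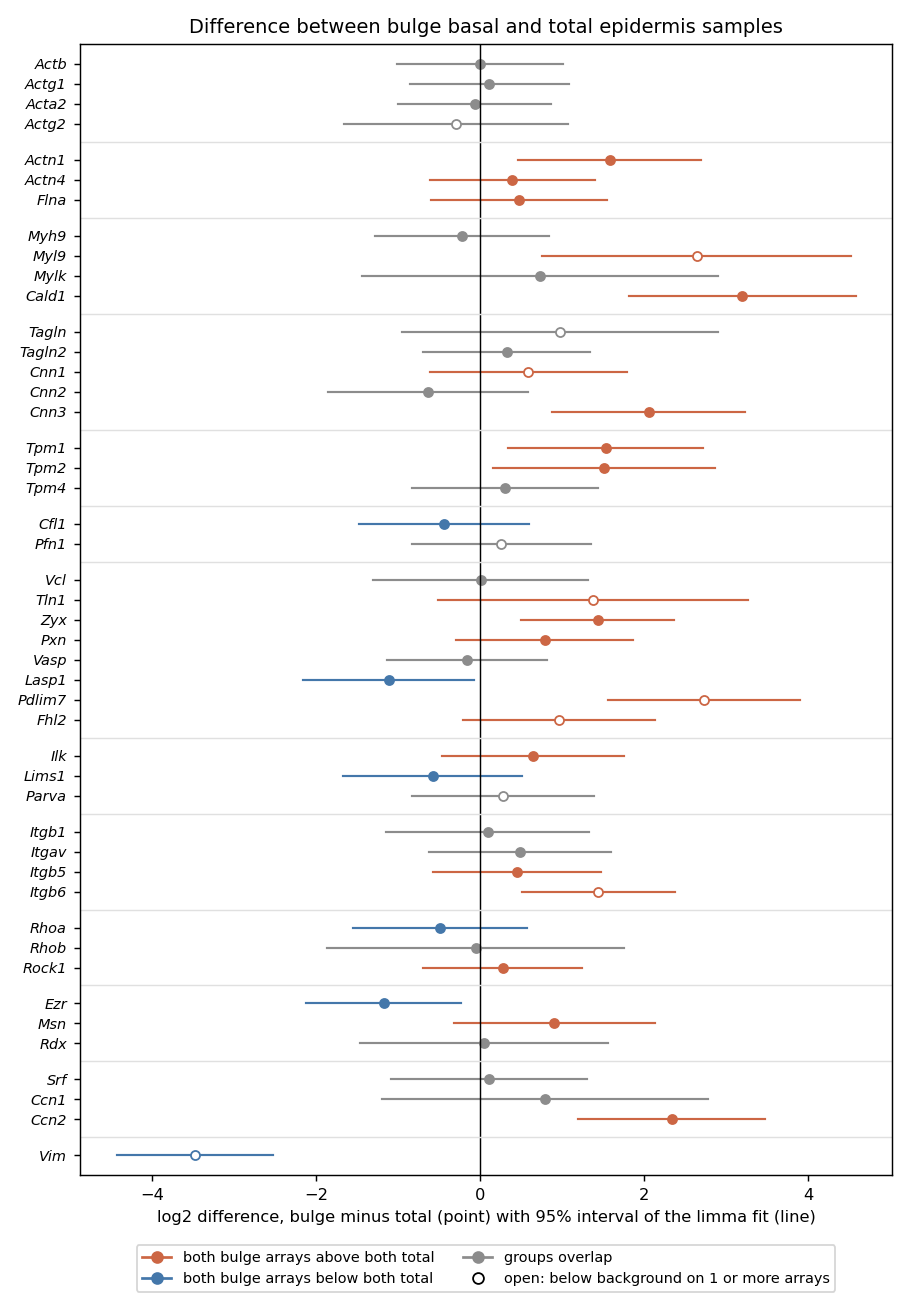
Log2 difference between bulge and total samples (horizontal axis, points) with the 95% interval of the planned limma fit (lines) for the 46 genes. Colour marks whether the groups overlapped, and open points were below background on at least 1 array. Cald1 at 3.20, Pdlim7 at 2.73 and Ccn2 at 2.34 lie far right, and Vim at -3.48 lies far left.

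Of 8 plaque genes of focal adhesions, 5 were higher in the bulge samples without overlap and 1 was lower, where 18% and 20.5% of all genes were. None passed the planned or the trended limma fit, and 3 of the 5 (Pdlim7, Tln1 and Fhl2) were below background on a total array. Zyx, zyxin, which gathers at adhesions and stress fibres under tension, had 8.96 and 8.99 in total epidermis and 10.48 and 10.35 in bulge cells. The 2 groups were tight and 2.71-fold apart, or 1.44 ± 0.37 (SE) in log2, at an adjusted p of 0.235 in the planned limma fit. Its other probe set, below background on both total arrays, gave 3.78. Pdlim7, a PDZ and LIM protein of actin filaments, had 5.15 and 6.06 against 8.39 and 8.29. It was below background on both total arrays and is bounded at 2.15-fold higher or more, with an adjusted p of 0.11 in the planned limma fit. The Pdlim7 probe set not used lay below background throughout. Pxn, paxillin, an adhesion scaffold, had 10.72 and 10.62 against 11.80 and 11.11. Tln1, talin, which activates integrins, had 7.85 and 5.75 against 8.27 and 8.09, and total replicate 2 alone lay below background. Without that array the Tln1 difference was 0.33. Fhl2, a LIM protein and transcriptional cofactor, had 7.27 and 7.16 against 8.63 and 7.72. Tln1 and Fhl2, each measured on 1 of 2 total arrays, are bounded at 1.56-fold and 1.90-fold higher or more, and neither they nor Pxn passed the test.

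The remaining plaque genes overlapped or went the other way. Vcl, vinculin, which reinforces the link of talin to actin, had 12.54 and 12.15 against 12.91 and 11.79, with a difference of 0.01 whose sign turned under quantile normalization. Vasp, which promotes filament elongation, had 8.53 and 8.89 against 8.48 and 8.62. Lasp1, a LIM and SH3 protein of the actin cortex, was lower on both bulge arrays: 11.31 and 11.20 in the total sort, against 10.44 and 9.84 in the bulge gate. The Lasp1 difference was -1.12 ± 0.41 (SE) at an adjusted p of 0.436 in the planned limma fit, and its probe sets above background ran from -1.12 to 0.15. In the complex on the integrin tail, Ilk, a pseudokinase, had 9.29 and 9.16 against 9.49 and 10.26, while its partner Lims1 had 10.57 and 10.41 against 10.27 and 9.55. Ilk was thus higher and Lims1 lower without overlap, neither passed, and Parva, the third partner, lay near background at 7.27 and 6.51 against 7.07 and 7.28.

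Among integrins, Itgb6, the β6 subunit of an epithelial receptor that activates latent TGF-β, was higher in the bulge samples. It had log2 signals of 6.30 and 6.13 on the total arrays, both below background, and 7.66 and 7.65 on the bulge arrays. It is bounded at 1.34-fold higher or more, with an adjusted p of 0.235 in the planned limma fit. Itgb5, the β5 subunit, had 9.34 and 9.46 against 9.57 and 10.12, higher without overlap or a call. Itgav, the αV partner of both, had 12.23 and 11.88 against 12.19 and 12.89 and overlapped. Itgb1, the β1 subunit shared by most basal keratinocyte integrins, had 9.39 and 8.56 against 9.39 and 8.75, an interval from -1.14 to 1.33.

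Rhoa, the GTPase that drives stress fibres, had 11.87 and 12.33 among all GFP-positive cells and 11.37 and 11.86 among bulge cells, lower without overlap by -0.49 and without a call. Its other probe set gave -0.86. Rhob, an immediate early gene, had 8.53 and 10.44 against 9.70 and 9.17, and total replicates lay farther apart than the groups. Rock1, a kinase that promotes contractility, had 11.22 and 11.30 against 11.36 and 11.73, but its other 3 probe sets had negative differences, from -0.69 to -0.29. Of the proteins that tie filaments to the membrane, Ezr, ezrin, was lower at 10.32 and 10.06 against 8.99 and 9.04. The Ezr difference was -1.18 ± 0.37 (SE), 2.26-fold lower with an adjusted p of 0.34 in the planned limma fit, and its other probe set gave 0.12. Msn, moesin, had 10.78 and 10.57 against 12.09 and 11.08, a 1.88-fold higher value without a call. Rdx, radixin, had 11.55 and 10.87 against 11.93 and 10.58 and overlapped.

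**Figure D4:**
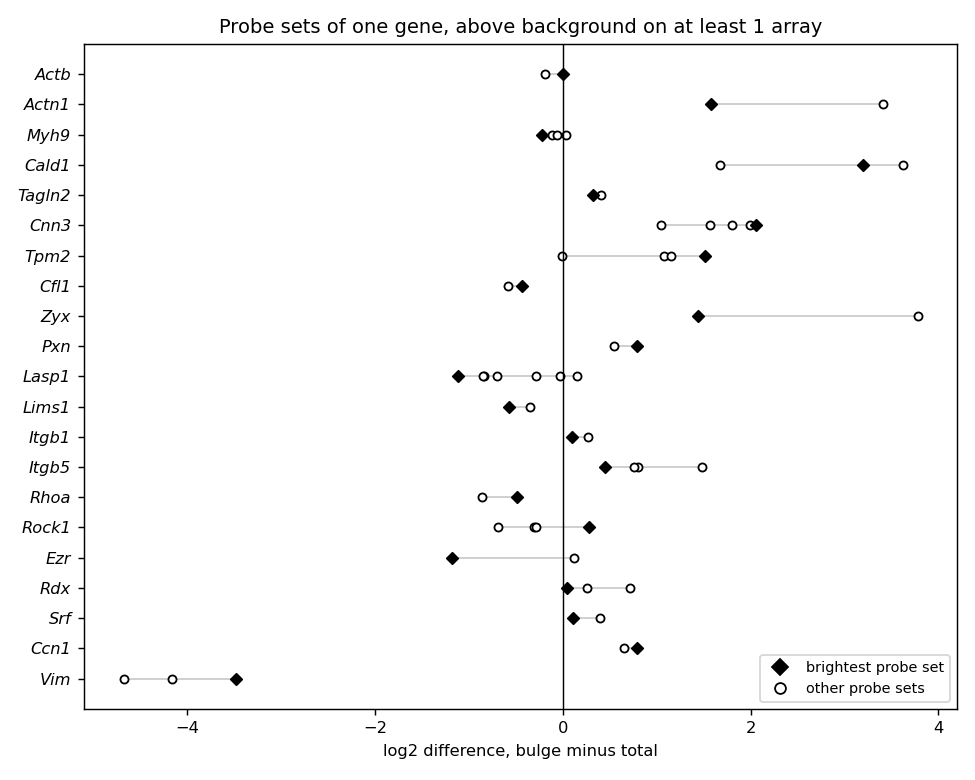
Log2 difference between bulge and total samples (horizontal axis) for every probe set above background on at least 1 array, for the 21 genes with more than 1, with the brightest probe set as a filled diamond. All probe sets of 16 genes lie on 1 side of 0, and Ezr, Lasp1, Myh9, Rock1 and Tpm2 have probe sets on both sides.

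Vim encodes vimentin, the intermediate filament protein of mesenchymal and blood cells, which works beside actin in adhesion, and it fell in the trended fit. It had log2 signals of 9.13 and 9.33 in total epidermis and 5.86 and 5.64 in bulge cells, the latter below background. The fall is bounded at 4.001-fold or more, from a fitted log2 value of -3.48 ± 0.38 (SE). Its adjusted p was 0.0729 in the planned limma fit and 0.0297 with the trend. Its other 2 probe sets, also below background on both bulge arrays, were lower without overlap too. Leukocyte markers moved the same way on these arrays: Ptprc, the pan-leukocyte phosphatase gene, had 8.68 and 8.82 against 5.37 and 4.94. The melanocyte gene Dct had 9.41 and 9.45 against 8.46 and 7.95. Of its list of melanocyte and Schwann cell markers, 6 of 7 were lower without overlap, where 20.5% of all genes were. Mitf went the other way, at 9.94 and 8.57 against 12.58 and 11.26. The part of these cell types in the Vim result was not tested.

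Other genes of the pathway were taken from a list of 119, of which 101 were measured. The planned and the trended limma fits called 0 of them, against 0% and 1.08% of all genes. In the planned fit 18 (17.8%) had an unadjusted p under 0.05, 14 higher and 4 lower. Of all genes 10.5% had, 5.18% higher and 5.29% lower. The fit on genes above background called only Anln of them, where it called 3.06% of all the genes it tested. Without overlap of the groups, 31 were higher (30.7%) and 16 lower (15.8%), against 18% and 20.5% of all genes. Other focal adhesion genes had 11 of 20 higher and 2 lower, and cross-linking genes had 5 of 10 higher and 1 lower. Nucleation genes, among them subunits of the Arp2/3 complex, had 1 of 12 higher and 1 lower. Turnover and capping genes had 4 of 13 each way. Other myosins had 2 of 10 higher and 3 lower, other integrins 2 of 7 higher and 0 lower, and SRF and YAP genes 4 of 11 higher and 2 lower. Septin and cortex genes had 2 of 7 lower and 0 higher.

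The 5 widest differences upward, among genes above background on all arrays whose groups did not overlap, were those of Fermt2, Csrp1, Pfn2, Tns1 and Tgfb1i1. Fermt2, kindlin-2, which activates integrins together with talin, had 7.44 and 8.14 in the total sort, against 10.62 and 9.73 in the bulge gate, a 5.23-fold difference with an adjusted p of 0.165 in the planned limma fit. Pfn2, a profilin, had 11.83 and 12.23 against 14.11 and 13.46. Csrp1, a LIM protein of filaments, Tns1, tensin, and Tgfb1i1, a paxillin relative also called Hic-5, were 3.61-fold, 3.31-fold and 2.92-fold higher. Downward, Anln, anillin, which scaffolds the cytokinetic ring, had 11.32 and 10.32 against 8.23 and 8.29, or -2.56 ± 0.48 (SE) in log2. Its adjusted p was 0.129 in the planned limma fit and 0.04 in the fit on genes above background. By the same rule, Pdlim1 and Cd44, the hyaluronan receptor, were 2.11-fold and 2.02-fold lower, and Diaph1, a formin that elongates filaments, and Myo10, a filopodial myosin, 1.45-fold and 1.42-fold lower. Only Anln of these 10 passed in any of the 3 fits named here.

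**Figure D5:**
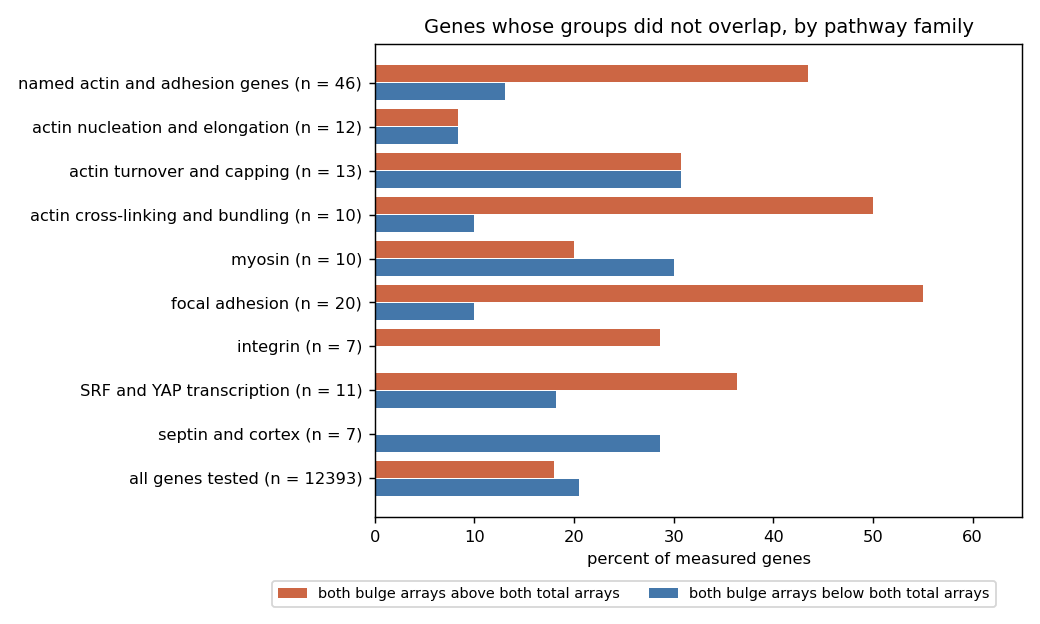
Percent of measured genes (horizontal axis) whose bulge arrays both lay above or both below the total arrays, for the 46 named genes, 8 families of the wider pathway list and all genes tested. Other focal adhesion genes reach 55% higher and 10% lower, and all genes 18% and 20.5%.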

How the data were processed

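The authors' deposited table gives each of 22690 probe sets a linear intensity between 0.0546 and 40835. Its mean after trimming 2% at each end is 500.0 on every array. Per the submitters' processing notes RMA, affy (version 1.36), GCOS and R (version 2.15.1) are listed, but which of them made these values is not given in the sources used here, and a common trimmed mean with unequal medians is not a property of RMA output. Amplification started from 200 ng of RNA with oligo-dT T7 primers, per the labels' protocols. Log2 was taken of the deposited intensity, since the file is not on a log scale. Probe sets were named from the platform's annotation, and Entrez IDs gave current RefSeq symbols (GRCm38.p6), and 20351 of 20380 with 1 symbol matched. The 64 controls, 691 probe sets with several symbols and 1555 with none stayed out of the gene tests. Background was the 95th percentile over 67 olfactory, vomeronasal and taste receptor genes (signal 149.99). A gene below it on an array of the dimmer group has only a bound, with that array set to background, which carries no sampling error, and no fold is given where the brighter mean is below it.

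The planned test used lmFit and eBayes of limma 3.58.1 under R 4.3.3, two-sided, with group as the only term. P-values were adjusted by Benjamini-Hochberg over the 12393 genes, at 0.05. Other settings were an intensity trend, a replicate block, median centring, quantile normalization, a pseudocount of 32, a filter on dim genes, other probe set rules and each array left out. The trend combined with leaving out arrays and the filter on the mean over all arrays were chosen after seeing the data. Both limma fits were first tested on simulated data. Members, gene lists and motifs were chosen with earlier results of these data known. The text accounts for every member, and for the genes of the wider list called or, among those above background on all 4 arrays whose groups did not overlap, with the 5 widest differences each way. The counts of 1 family of that list are not reported here.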

Additional observations from a re-analysis of the deposited data

How the results depend on the processing

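The median difference of 0.36 over the 46 genes stayed between 0.29 and 0.43 over 18 other settings, and 23 of the 26 genes whose groups did not overlap kept their sign in every setting that gave them a value (the exceptions were Tln1, Rock1 and Ezr, and Myl9, Cnn1, Pdlim7 and Itgb6 had no value under 1 or both filters). The trend, the block and the filters leave the estimate as it is, and groups without overlap keep their sign when 1 array is left out. Only changes of scaling or of probe set could turn the sign of these 26 genes. Calls differed between settings: the planned limma fit called 0 genes higher and 0 lower, the trend 69 and 65 with 2 of the 46, log2 of signal plus 32 called 25 and 29 with 1 of the 46, and the filter on dim genes 104 and 118 with 4 of the 46 and 1 of the 101 other pathway genes. The filter on the mean over all arrays called 69 and 73, with 2 of the 46 and 1 other pathway gene. Replicate numbers were shared by the groups, and replicate differences correlated at r = 0.63 between groups across 5780 genes. With the replicate block 0 of the 46 genes were called, with a smallest adjusted p of 0.0531 in limma, shared by Cald1 and Vim.

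Without 1 array, with or without the trend, the fits called 0 to 171 genes higher and 0 to 217 lower, 0 to 4 of the 46 and 0 to 4 of the other pathway genes, and 24 to 27 of the 46 were higher and 8 to 13 lower without overlap. The counts without overlap cannot be compared with the 20 higher and 6 lower on all 4 arrays. A group of 1 array separates from the other group more easily, so higher counts do not strengthen the result. No share of all genes without overlap is given for these settings. Signs turned with median centring for Actb (0.067), Acta2 (0.0031) and Rhob (0.013), and with quantile normalization for Vcl (-0.031). With the mean over probe sets they turned for Acta2 (0.061), Vcl (-0.95), Itgav (-0.41) and Rock1 (-0.25). With the second brightest probe set they turned for Acta2 (0.19), Myh9 (0.037), Vcl (-1.91), Tln1 (-0.60), Rock1 (-0.31) and Ezr (0.12). Without 1 array the difference ran from -0.26 to 0.26 for Actb, -0.020 to 0.25 for Actg1, -0.92 to 0.35 for Actg2, -0.55 to 0.10 for Myh9, -0.50 to 1.96 for Mylk, -0.11 to 0.72 for Tpm4, -0.10 to 0.61 for Pfn1 and -0.56 to 0.57 for Vcl. It ran from -0.34 to 0.019 for Vasp, -0.10 to 0.66 for Parva, -0.32 to 0.51 for Itgb1, -1.01 to 0.90 for Rhob, -0.63 to 0.73 for Rdx, -0.37 to 0.59 for Srf and -0.32 to 1.91 for Ccn1. The cause was not tested. Protein sequences of the actins were not used here, so the planned comparison of them was not run.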
